A study of Mus musculus with 6 samples.

Results

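The genes described here encode the proteins of the cytosolic ribosome, measured in granulocyte-monocyte progenitors, marrow cells committed to the neutrophil and monocyte lineages. They were chosen by symbol: rows named Rpl or Rps followed by a number, with an optional letter (a, x, y or l) and a further number after it, together with Rpsa, Rplp0, Rplp1 and Rplp2. Rows with -ps, which are pseudogenes, and S6 kinase genes were left out. This gave 84 of the 16539 genes in the table, 32 of the small subunit and 52 of the large subunit. Progenitors were sorted by flow cytometry from wild-type mice (genotype WT) 3 days after a myocardial infarction, in which heart muscle dies for lack of blood. The study asked what changes in these progenitors with disturbed sleep. Polyadenylated RNA of 3 samples from mice with sleep fragmentation and infarction was compared with that of 3 samples from control mice with infarction, so that every library carries the infarction. No library without infarction was analysed here. The labels used here do not give age, sex, how sleep was fragmented, or whether a sample pooled mice. The p-values therefore describe the spread between libraries, which may be technical.

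A ribosome has a small subunit, which reads the mRNA, and a large subunit, which joins amino acids and holds the tunnel through which the new protein leaves. Nearly all of its proteins are present in equal number, and their genes are among the most strongly transcribed of dividing cells. Their mRNAs typically begin with a C followed by a run of pyrimidines, the terminal oligopyrimidine (TOP) motif, through which the kinase mTOR and the RNA-binding protein Larp1 set their stability and translation. In humans, loss of a single copy of several of these genes causes Diamond-Blackfan anaemia, in which the marrow fails to make red cells, and in maturing granulocytes ribosome production falls as division stops.

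The starts of these genes are shown first, because the TOP motif is a feature known for their mRNAs that the selection by name did not use. In RefSeq's annotation of GRCm38.p6, 63 of the 84 genes had a start with 250 bases before it and 50 after it, and 21 were not in that table. A C within 5 bases of an annotated start followed by at least 4 bases that are each C or T was present in 30 of the 63 (47.6%), against 5718 of all 27025 genes in the table (21.2%). A gene with several annotated starts was counted, here and for the motifs below, if any of its starts had the motif. CCGGAAG, the core of the motif bound by ETS factors such as GABP, was found on either strand of the 300 bases in 26 of 63 (41.3%), against 9.93% of all genes. TATAAA within the 50 bases before the start was found in 1 of 63 (1.59%), against 3.15% of all genes. Annotated starts can lie some bases from the true one, so an absent motif says only that these letters are not in this window.

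The windows below run from 10 bases before the annotated start to 20 from it, 5′ to 3′, for 6 genes whose levels are described further down, with the C near the start and its pyrimidine run in capitals. They lie at chr4:86857348-86857377, minus strand, for Rps6, chr7:141447641-141447670, plus strand, for Rplp2, chr3:90213629-90213658, minus strand, for Rps27, chr14:18270967-18270996, minus strand, for Rpl15, chr17:24720053-24720082, plus strand, for Rps2, and chrX:37085203-37085232, minus strand, for Rpl39 (GRCm38.p6).
Rps6: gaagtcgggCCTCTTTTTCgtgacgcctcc
Rplp2: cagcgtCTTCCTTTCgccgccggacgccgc
Rps27: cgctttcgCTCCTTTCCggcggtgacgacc
Rpl15: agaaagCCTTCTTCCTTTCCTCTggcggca
Rps2: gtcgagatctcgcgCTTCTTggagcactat
Rpl39: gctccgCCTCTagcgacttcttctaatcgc
The run was 17 bases long in Rpl15, 10 in Rps6, 9 in Rplp2 and Rps27, 6 in Rps2 and 5 in Rpl39. The starts of 3 genes of paralog pairs are shown for contrast, at chr9:66946076-66946105, plus strand, for Rps27l, chr4:152325716-152325745, plus strand, for Rpl22, and chr3:28805498-28805527, plus strand, for Rpl22l1. Rpl22 and Rps27l each have 2 annotated starts, of which 1 is shown. Where any start of a gene had such a run, a start with the run was chosen for display. Neither start of Rpl22 has such a run.
Rps27l: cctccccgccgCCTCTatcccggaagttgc
Rpl22: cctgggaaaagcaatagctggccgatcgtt
Rpl22l1: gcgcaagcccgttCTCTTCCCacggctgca

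The 6 libraries had between 28971253 and 31665923 counts, and 12097 genes passed the filter on low counts. All 84 ribosomal protein genes passed it. Levels are given as CPM, counts per 1000000 counts of the library after scaling by its TMM factor, which sets typical genes equal between libraries. Of the 84, 81 had a mean of at least 50 CPM, and the other 3, Rpl32l, Rpl3l and Rpl39l, had 74 counts or fewer in each library. Markers of the labelled cell type were present: Mpo, myeloperoxidase, had 7000.4, 11232 and 9425 CPM after sleep fragmentation, against 11557, 9922 and 11068 CPM in control, and Kit, the stem cell factor receptor, had 150.1, 193 and 166 CPM after sleep fragmentation, against 184, 156 and 185 CPM in control. Values of markers of other marrow cells are given further down.

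No ribosomal protein gene was called different between sleep fragmentation and control. Of the 84 genes, 44 had higher and 40 had lower fitted levels after sleep fragmentation than in control, where 49% of all genes were higher, and the median log2 fold change was 0.01, beside -0.004 over all 12097 genes. Genes of the small subunit had a median of 0.005 (17 higher, 15 lower) and those of the large subunit 0.02 (27 higher, 25 lower). By edgeR's quasi-likelihood test with Benjamini-Hochberg adjustment over all genes, 0 of the 84 passed an adjusted p of 0.05 (their adjusted p lay between 0.99988 and 0.99991), where 0% of all 12097 genes did. At an unadjusted edgeR p under 0.05 there were again 0 of the 84, where 2.82% of all genes lay, 2.16% on the higher side and 0.661% on the lower side. In 0 of the 84 did the groups separate without overlap, where 6.75% of all genes separated.

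Among the 81 genes at 50 CPM or more, log2 fold changes ran between -0.31 and 0.41, with quartiles of -0.07 and 0.06, with standard errors between 0.12 and 0.30. For 68 of the 81 the fitted difference was smaller than 1.1-fold. On simulated counts the edgeR fit called 26.5% of 1.5-fold and 76.3% of 2-fold changes in ribosomal protein genes. Differences of these sizes could therefore be missed. DESeq2 called 0 of the 84 and limma-voom 0, and each had 0 at an unadjusted p under 0.05. The direction of the family depended on single libraries, and with the scaling it moved together with all genes. Scaled by library size only, 16 genes were higher and 68 lower, with the median of the family at -0.09 and that of all genes at -0.11. Counts given below for this scaling carry the same shift. With TMM scaling, 72 of 84 were higher without sleep fragmentation replicate 1, 28 without its replicate 2 and 6 without its replicate 3. Without control replicates 1, 2 and 3 the numbers higher were 59, 20 and 53.

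**Figure D1:**
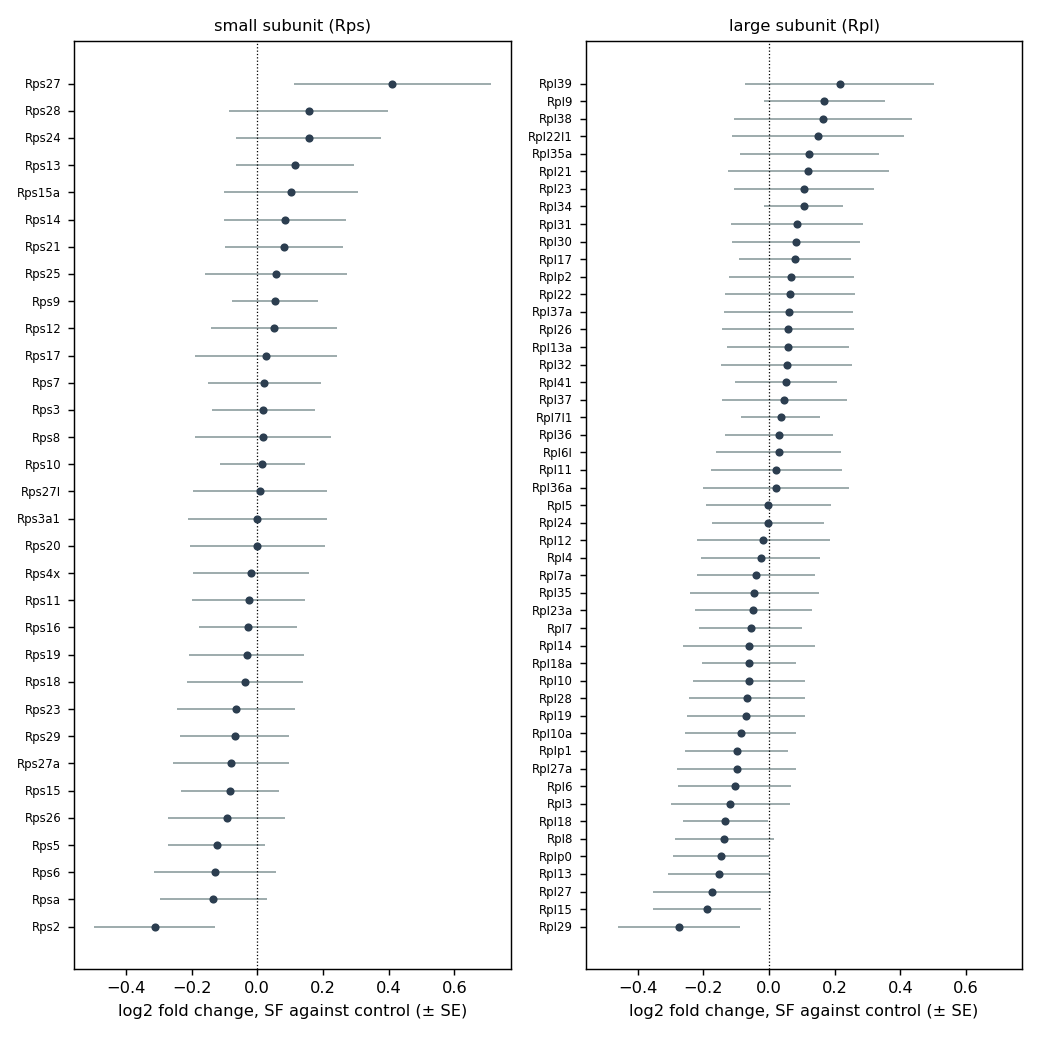
Log2 fold change of sleep fragmentation (SF on the axes) against control for each of the 81 ribosomal protein genes at 50 CPM or more, small subunit on the left and large subunit on the right, with bars for the standard error (n = 3 per group). Points lie on both sides of 0, from -0.31 for Rps2 to 0.41 for Rps27, and 0 passed edgeR's test.

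The abundant members of the small subunit did not separate the groups. Rps3a1, a protein of the platform near the mRNA exit, had 1134, 1815 and 1787 CPM in sleep fragmentation replicates 1 to 3, against 1739, 1379 and 1617 CPM in control replicates 1 to 3. Its lowest value was that of sleep fragmentation replicate 1 and its highest that of replicate 2 of the same group, and the means were 1579 ± 386 CPM after sleep fragmentation and 1578 ± 183 CPM in control (SD, n = 3 each, log2 fold change 0.0005, SE 0.21). Rpsa, which was first described as a laminin receptor and sits at the mRNA exit, had 1222, 1609 and 1494 CPM after sleep fragmentation, against 1662, 1471 and 1612 CPM in control (log2 fold change -0.13, SE 0.16). Rps4x, encoded on the X chromosome, had 911, 1323 and 1282 CPM after sleep fragmentation, against 1237, 1097 and 1229 CPM in control (log2 fold change -0.02, SE 0.18). In each of the 3 genes replicate 1 of sleep fragmentation lay lowest and the ranges of the groups overlapped. Other members of known roles overlapped as well. Rps6, whose protein is phosphorylated by the S6 kinases downstream of mTOR, had 877, 1332 and 1005 CPM after sleep fragmentation, against 1275, 1041 and 1199 CPM in control (log2 fold change -0.13, SE 0.19). Rps3, at the mRNA entry and also a DNA repair factor, had 739, 961 and 1007 CPM after sleep fragmentation, against 929, 850.5 and 892 CPM in control (log2 fold change 0.02, SE 0.16). Rps19, the gene most often mutated in Diamond-Blackfan anaemia, had 328, 453 and 516 CPM after sleep fragmentation, against 451, 406 and 470.0 CPM in control (log2 fold change -0.03, SE 0.18). In Rps3 and Rps19 replicate 3 of sleep fragmentation was highest, and in Rps6 it lay below all but 1 library. Rps27a, made as a fusion with ubiquitin, had 611, 879 and 658 CPM after sleep fragmentation, against 838, 660.0 and 771 CPM in control (log2 fold change -0.08, SE 0.18).

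Grouped by place in the small subunit, the 14 proteins of the head, which holds the tRNA sites together with the body, had 6 higher and 8 lower fitted levels (median log2 fold change -0.01, range -0.12 to 0.16). The 17 proteins of the body and platform had 10 higher and 7 lower (median 0.02, range -0.31 to 0.41). Both ends of the range were in the body and platform, with Rps2 lowest and Rps27 highest. With library size scaling only 1 of 14 head genes and 4 of 17 body and platform genes were higher, and without sleep fragmentation replicate 1 the counts were 13 and 14.

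In the large subunit, Rpl5 and Rpl11, which assemble with the 5S ribosomal RNA and also bind Mdm2, the inhibitor of p53, had the same order of low libraries. Rpl5 had 751, 1128 and 1099 CPM in sleep fragmentation replicates 1 to 3, against 1094, 872 and 1016 CPM in control replicates 1 to 3 (log2 fold change -0.002, SE 0.19). Rpl11 had 477, 727 and 740.0 CPM after sleep fragmentation, against 717, 532 and 665 CPM in control (log2 fold change 0.02, SE 0.20). Both were lowest in replicate 1 of sleep fragmentation, next lowest in control replicate 2, and close together in the other 4 libraries. The stalk, which recruits elongation factors, is formed by Rplp0 with the acidic proteins Rplp1 and Rplp2 on a base that includes Rpl12. Rplp0 had 1181, 1373 and 1159 CPM after sleep fragmentation, against 1327, 1346 and 1435 CPM in control. Rplp1 had 388, 520.0 and 529.6 CPM after sleep fragmentation, against 540.3, 463 and 536 CPM in control. Rplp2 had 328, 447 and 548 CPM after sleep fragmentation, against 453, 378 and 431 CPM in control. Rplp2 was highest in sleep fragmentation replicate 3, where Rplp0 was lowest. Their log2 fold changes were -0.15 (SE 0.15), -0.10 (SE 0.16) and 0.07 (SE 0.19), and that of Rpl12 was -0.02, so that 1 of the 4 stalk genes had a higher fitted level. Around the exit tunnel, 5 of 9 genes had higher fitted levels (median 0.06, range -0.07 to 0.21), against 1 of 9 with library size scaling only. Leaving out sleep fragmentation replicate 1 made all 9 higher, and leaving out its replicate 3 made 0 higher. Rpl4, which lines the tunnel and had the highest CPM of all 84 genes, had 1366, 1900.5 and 1863 CPM after sleep fragmentation, against 1835, 1557 and 1827 CPM in control (log2 fold change -0.03, SE 0.18). Rpl3, near the peptidyl transferase centre, had 791, 1144 and 985 CPM after sleep fragmentation, against 1147, 898 and 1123 CPM in control (log2 fold change -0.12, SE 0.18), and Rpl10, which completes the large subunit late in its maturation, had 750.4, 1076 and 994 CPM after sleep fragmentation, against 1022, 899 and 1024 CPM in control (log2 fold change -0.06, SE 0.17).

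Of 18 genes of Diamond-Blackfan anaemia, named from human patients, 10 had higher and 8 lower fitted levels (median 0.02, range -0.19 to 0.41), with 0 at an unadjusted edgeR p under 0.05. Scaled by library size only, 4 of the 18 were higher, and 15 and 0 were higher without sleep fragmentation replicates 1 and 3.

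The genes with the smallest unadjusted p on the lower side were Rps2, Rpl29, Rpl15, Rpl18, Rplp0 and Rpl13. Rps2, at the mRNA entry of the small subunit, had 749, 1104 and 785 CPM in sleep fragmentation replicates 1 to 3, against 1129, 969.9 and 1178 CPM in control replicates 1 to 3. Replicates 1 and 3 of sleep fragmentation lay below all controls, and replicate 2 lay among them (log2 fold change -0.31, SE 0.18). Rpl29, a large subunit protein that also binds heparin, had 267, 358 and 216 CPM after sleep fragmentation, against 346, 307 and 365 CPM in control (log2 fold change -0.27, SE 0.19). Rpl15, a core protein of the large subunit, had 341, 461 and 316 CPM after sleep fragmentation, against 435, 392 and 446 CPM in control (log2 fold change -0.19, SE 0.16). The same 2 libraries were below all controls and replicate 2 was not, in Rpl29 and Rpl15 alike. Rpl18, a large subunit protein mutated in some patients with Diamond-Blackfan anaemia, had 364, 439 and 388 CPM after sleep fragmentation, against 432, 412 and 462 CPM in control (log2 fold change -0.13, SE 0.13). Rpl13, whose mutation in humans causes a bone growth disorder, had 533, 735 and 651 CPM after sleep fragmentation, against 731, 653 and 748 CPM in control (log2 fold change -0.15, SE 0.16). In both genes replicate 2 of sleep fragmentation lay among the controls. Without replicate 2 of sleep fragmentation, Rpl29, Rps2 and Rpl15 were the 3 ribosomal protein genes at an unadjusted edgeR p under 0.05, with log2 fold changes of -0.49, -0.51 and -0.37, in a fit where 10.8% of all genes lay there, and 0 of 84 passed the adjusted threshold.

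On the higher side the 6 genes were Rpl32l, Rps27, Rpl3l, Rpl9, Rpl34 and Rpl39, and single libraries weighed on them. Rps27, a zinc finger protein of the small subunit, had 203, 288 and 524 CPM in sleep fragmentation replicates 1 to 3, against 285, 225 and 253 CPM in control replicates 1 to 3. Replicate 3 of sleep fragmentation lay above all other libraries and replicate 1 was the lowest (log2 fold change 0.41, SE 0.30). Without replicate 3 the log2 fold change of Rps27 was -0.05. Rpl39, a very small protein of the tunnel wall, had 267, 405 and 644 CPM after sleep fragmentation, against 431, 307 and 396 CPM in control (log2 fold change 0.21, SE 0.29). Rpl9, near the stalk base, had 511, 676 and 807 CPM after sleep fragmentation, against 658, 542 and 574 CPM in control (log2 fold change 0.17, SE 0.18), and Rpl34 had 200.5, 235 and 237 CPM after sleep fragmentation, against 215, 196 and 214 CPM in control (log2 fold change 0.11, SE 0.12). Rpl39 and Rpl9 had the order of Rps27, with replicate 3 highest and replicate 1 lowest. Rpl32l, a low-count gene, had 5, 13 and 74 counts after sleep fragmentation against 8, 13 and 16 in control, and its log2 fold change was 1.51 with all libraries and -0.37 without replicate 3. Without replicate 1 of sleep fragmentation, Rps27, Rpl32l and Rpl22l1 were at an unadjusted edgeR p under 0.05, with log2 fold changes of 0.67, 2.004 and 0.41, where 2.21% of all genes lay there and 0 passed the adjusted threshold.

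**Figure D2:**
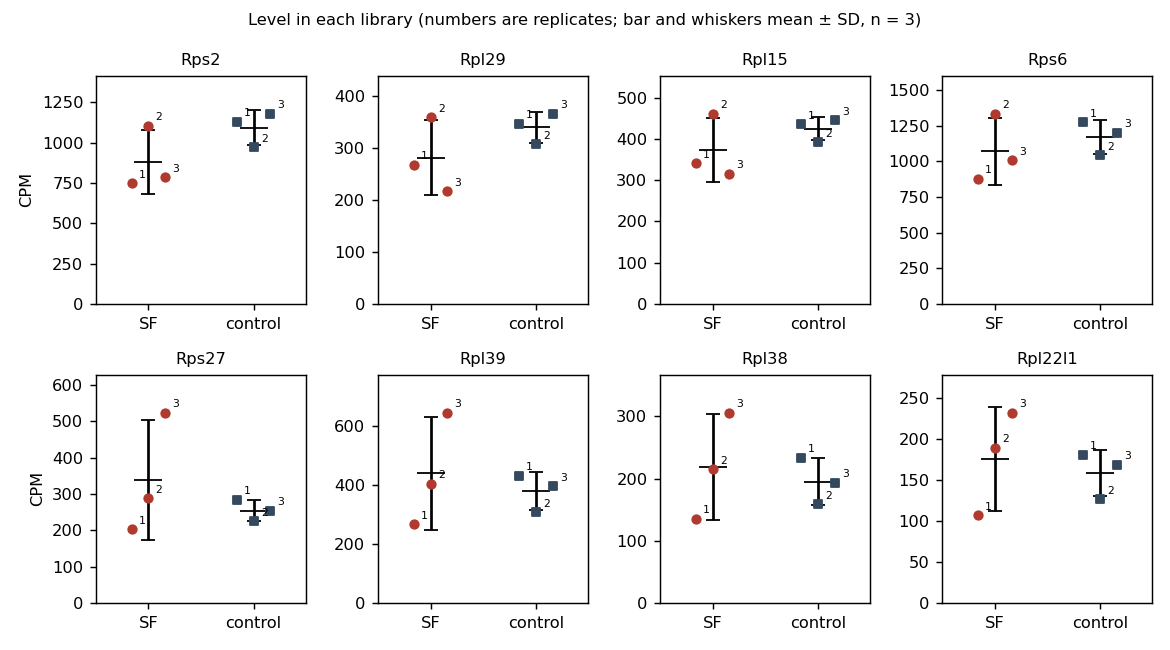
CPM of 8 ribosomal protein genes in each library, sleep fragmentation (circles) left of control (squares), with the replicate number beside each point and mean ± SD (n = 3). In the upper row (Rps2, Rpl29, Rpl15, Rps6) replicates 1 and 3 of sleep fragmentation lie low and replicate 2 among or above the controls, and in the lower row (Rps27, Rpl39, Rpl38, Rpl22l1) replicate 3 lies highest.

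What the ribosomal protein genes shared was a common level within each library. In replicate 1 of sleep fragmentation all 81 genes at 50 CPM or more lay below their own mean over the 6 libraries, and 76 of them had their lowest value there. In control replicate 2, 79 of the 81 lay below their mean, and for 71 genes these 2 libraries were the lowest pair. In sleep fragmentation replicate 2 and in control replicate 1, 79 genes each lay above their mean, and 45 genes had their highest value in sleep fragmentation replicate 3. The median deviation of the 84 genes from their mean, on the log2 CPM scale, was -0.37, 0.14 and 0.17 in sleep fragmentation replicates 1 to 3, against 0.12, -0.17 and 0.08 in control replicates 1 to 3. Each group thus held 1 low library and 2 higher ones. Over all genes tested the medians were -0.02, 0.01 and 0.006 after sleep fragmentation, against 0.01, 0.007 and 0.01 in control. Low medians in sleep fragmentation replicate 1 and control replicate 2 were not confined to genes of translation, but not every set had them. They were -0.56 and -0.45 for 7 eosinophil, basophil and mast cell genes and -0.27 and -0.18 for 7 monocyte genes. For 11 progenitor markers they were -0.39 and -0.05, and for 3 T and NK cell genes that passed the filter -0.48 and 0.06. For 14 late neutrophil genes they were 0.97 and 0.21. The SD of log2 CPM within groups had a median of 0.23 over the 81 genes, against 0.16 over all genes at that level.

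**Figure D3:**
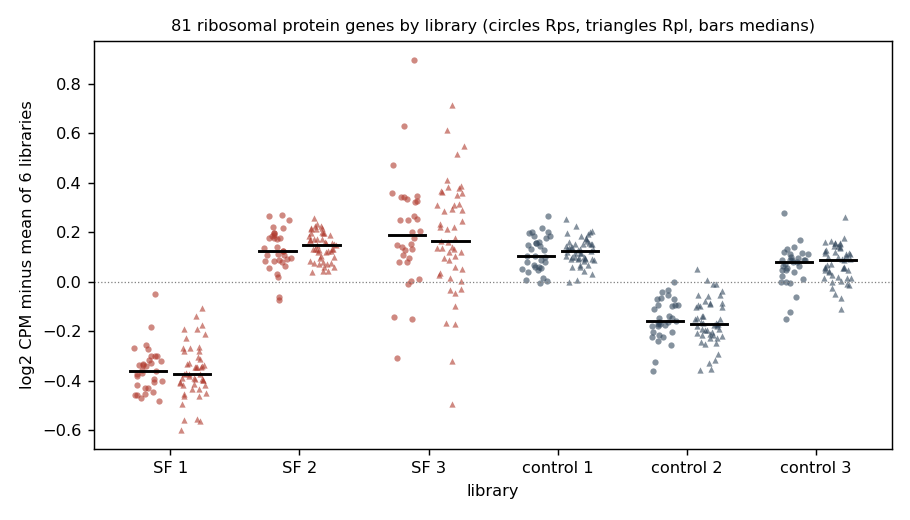
Each point is 1 of 81 ribosomal protein genes, plotted as its log2 CPM minus its mean over the 6 libraries; circles are small and triangles large subunit genes, and bars are medians. Replicate 1 of sleep fragmentation and replicate 2 of control lie low as a block, and replicate 3 of sleep fragmentation is the most scattered.

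The share of all counts in ribosomal protein genes was 3.62%, 5.91% and 5.30% in sleep fragmentation replicates 1 to 3, against 5.70%, 4.57% and 5.81% in control replicates 1 to 3. The means were 4.94% ± 1.18 after sleep fragmentation and 5.36% ± 0.69 in control (SD, n = 3 each), a difference of -0.42 percentage points that is smaller than the SD of each group. The ratio of large subunit to small subunit counts was 1.33, 1.32 and 1.31 in sleep fragmentation replicates 1 to 3, against 1.31, 1.31 and 1.33 in control replicates 1 to 3. The 2 libraries with the lowest shares, sleep fragmentation replicate 1 and control replicate 2, had 1.33 and 1.31, against 1.31 to 1.33 in the others.

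**Figure D4:**
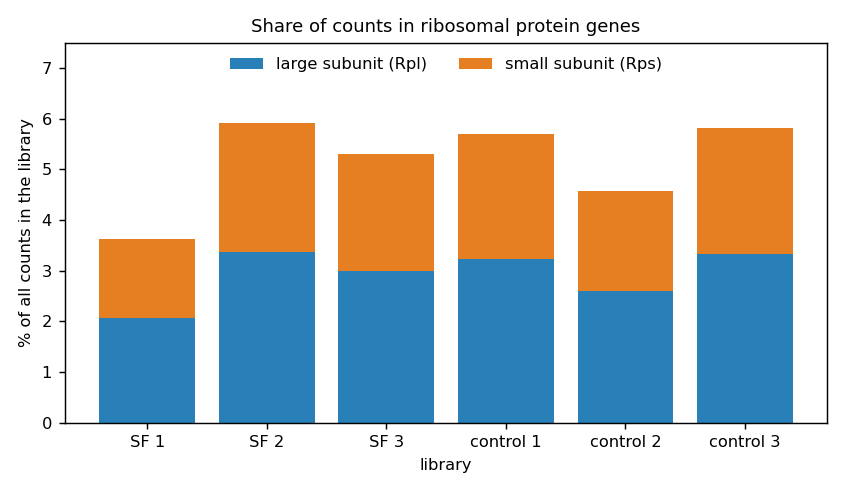
Percent of all counts in genes of the large (lower part of each bar) and small subunit (upper part) in each library. The total lies between 3.62% and 5.91% after sleep fragmentation and between 4.57% and 5.81% in control, and the proportion of the 2 parts is alike in all bars.

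Markers of neutrophil maturation differed between the same libraries. The summed level of 14 late neutrophil genes, among them Camp, Ltf, Ngp, S100a8 and Retnlg, was 124927, 50944 and 115209 CPM in sleep fragmentation replicates 1 to 3, against 60774, 79587 and 45176 CPM in control replicates 1 to 3, and 14 of 14 had higher fitted levels after sleep fragmentation, where 49% of all genes were higher. At an unadjusted edgeR p under 0.05 there were 4 of the 14, where 2.16% of all genes lay on that side, while 0 passed the adjusted threshold and 0 separated without overlap. The summed level was highest where ribosomal protein genes were lowest, in sleep fragmentation replicate 1, and among controls in replicate 2, but it was nearly as high in sleep fragmentation replicate 3, where most ribosomal protein genes were high. The 11 markers of the progenitors themselves summed to 12604, 18794 and 16339 CPM after sleep fragmentation, against 19658, 17283 and 18780 CPM in control, with 2 of 11 fitted levels higher. In 2 of the 11 the groups separated without overlap, lower after sleep fragmentation, where 464 of all 12097 genes separated on that side. At an unadjusted edgeR p under 0.05 there were 0 of the 11. The part of both marker sets in the levels of ribosomal protein genes was not tested, and in such samples fewer cells of a kind and less RNA per cell cannot be told apart. Markers of other blood cells were low in part. Klf1, an erythroid transcription factor, had 0.710, 1.18 and 1.03 CPM after sleep fragmentation, against 0.537, 0.414 and 0.213 CPM in control, and Car1, the carbonic anhydrase of red cells, had 3.85, 4.55 and 5.72 CPM after sleep fragmentation, against 3.22, 2.04 and 2.86 CPM in control. Both were higher in each library after sleep fragmentation than in any control, where 6.75% of all genes separated in either direction. Both lay at an unadjusted edgeR p under 0.05, where 2.16% of all genes lay on the higher side, and neither passed the adjusted threshold. Within control, Klf1 was lowest in replicate 3 and Car1 in replicate 2. Hbb-bs, a globin gene, had 4.37, 4.98 and 12.9 CPM after sleep fragmentation, against 10.9, 1.46 and 3.25 CPM in control, with sleep fragmentation replicate 3 highest and control replicate 2 lowest. The part of such cells in the levels of ribosomal protein genes was not tested. The 6 genes of T and NK cells summed between 169 and 257 CPM after sleep fragmentation and between 245 and 261 CPM in control, with Cd3e, Cd3g, Cd4, Cd8a and Klrb1c under 1 CPM. The 7 genes of eosinophils, basophils and mast cells summed between 3859.8 and 5829 CPM after sleep fragmentation and between 3303 and 5519 CPM in control, and the 7 of monocytes between 864 and 1232 CPM after sleep fragmentation and between 926 and 1407 CPM in control.

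Replicate 3 of sleep fragmentation differed from the others in which ribosomal protein genes were high. Its genes with short coding sequences lay highest: over 80 genes the rank correlation of coding length with the deviation of that library was -0.63. It was 0.40 and 0.29 in sleep fragmentation replicates 1 and 2, and 0.01, 0.54 and 0.36 in control replicates 1 to 3. These are correlations across genes of 1 library, where the points share a library with its depth and base composition, and genes are not independent replicates. The 40 genes with coding sequences under 457.5 nt had a median deviation of 0.32 in replicate 3, and the 40 longer ones 0.09. In replicate 1 the 2 medians were -0.40 and -0.33, and in control replicate 2 -0.20 and -0.12. Across 4328 other genes at 50 CPM or more the correlation with coding length in sleep fragmentation replicate 3 was -0.36, so the tilt was not confined to ribosomal protein genes, and 264 other genes with coding sequences as short had a median deviation of 0.16 there. For ribosomal protein genes the rank correlation with the GC content of the transcript did not set this library apart. It was 0.33, -0.33 and -0.30 in sleep fragmentation replicates 1 to 3, against -0.10, 0.42 and 0.34 in control replicates 1 to 3. Across the 4328 other genes it was 0.16, -0.17 and -0.29 after sleep fragmentation, against -0.22, 0.26 and 0.12 in control. There it was largest in size in sleep fragmentation replicate 3.

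Single genes show the tilt. Rpl38, a small protein that in mouse embryos is needed for the translation of Hox mRNAs, had 135, 215 and 306 CPM after sleep fragmentation, against 233, 159 and 193 CPM in control (log2 fold change 0.16, SE 0.27), and Rps28 had 151, 195 and 314 CPM after sleep fragmentation, against 203, 174 and 216 CPM in control (log2 fold change 0.16, SE 0.24). With Rps27 and Rpl39 they had the 4 largest deviations in replicate 3 among the 81 genes at 50 CPM or more. Without replicate 3 the log2 fold changes of Rpl39, Rpl38 and Rpl22l1 were -0.17, -0.16 and -0.10. The 12 genes of the 81 that lay below their own mean in that library were Rpl29, Rpl15, Rps2, Rpl6, Rplp0, Rps27a, Rps6, Rpl18, Rpl13, Rpl8, Rpl3 and Rpsa, all with coding sequences longer than the median of 457.5 nt. The median log2 fold change between the groups was 0.06 for the 40 genes of short and -0.04 for the 40 of long coding sequence.

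**Figure D5:**
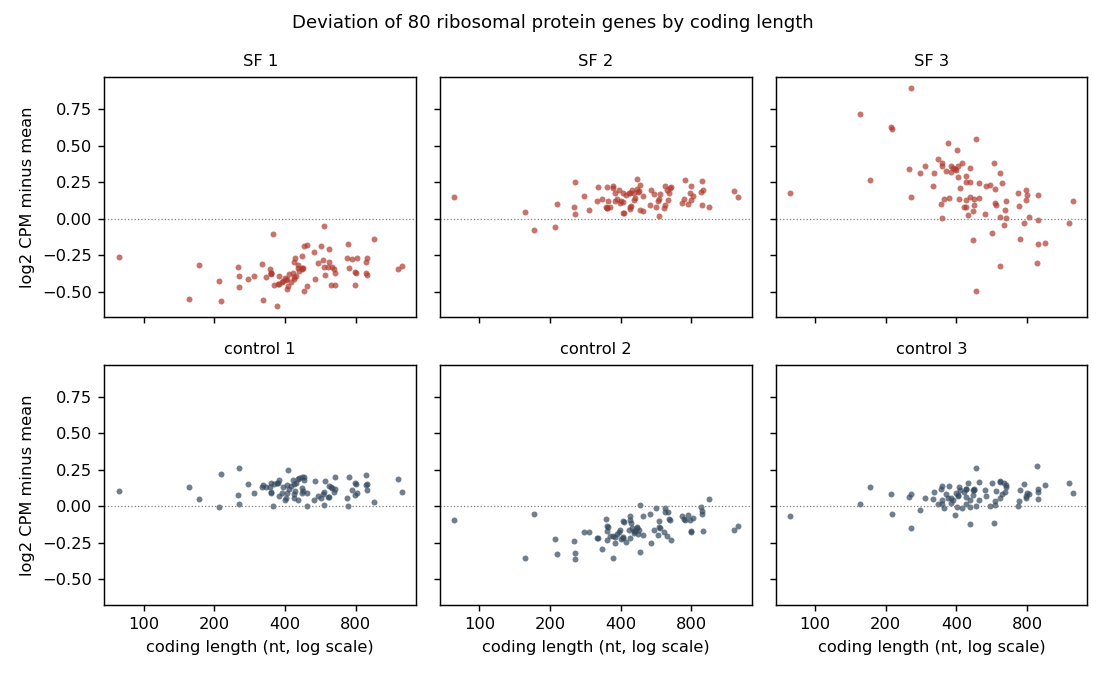
Deviation of each of 80 ribosomal protein genes from its mean over the 6 libraries (log2 CPM) against coding length in nucleotides on a log axis, 1 panel per library, sleep fragmentation above control. The downward slope in sleep fragmentation replicate 3 (rank correlation -0.63) is not seen in the other 5 panels, and the points of sleep fragmentation replicate 1 and nearly all of control replicate 2 lie below 0.

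Levels between genes were compared per kilobase of transcript, with lengths from GENCODE M21 (GRCm38), for the 80 of the 81 genes that it lists. They ran from 94.8 to 1758 CPM per kilobase as means of the 6 libraries, with a median of 839 and quartiles of 604 and 1053. Highest were Rpl23a, at the tunnel exit where the signal recognition particle docks (1729 after sleep fragmentation and 1787 in control), Rps3a1 (1616 after sleep fragmentation and 1616 in control) and Rpl32 (1518 after sleep fragmentation and 1462 in control). Lowest were the paralog Rpl7l1 (95.9 after sleep fragmentation and 93.6 in control), Rps20, whose listed transcript is 3706 nt long for a coding sequence of 360 nt (147 after sleep fragmentation and 147 in control), the paralog Rps27l (171 after sleep fragmentation and 170.4 in control) and Rpl21 (241 after sleep fragmentation and 222 in control). Rpl6l, which has no length there, had 53.8, 78.2 and 87.2 CPM after sleep fragmentation, against 82.2, 59.989 and 72.7 CPM in control. These orders also carry what the counting does to sequence shared with other genes. Processed pseudogenes of ribosomal proteins are numerous, and 41.0% of the 100-base windows of a typical (median) gene of the 81 occurred unchanged in a transcript of another gene of that annotation. More than 50% of windows were shared in 32 genes and none in 6. Rps27 shared 98.4% of its windows with 2 other genes, and Rpl21 shared 36.8% with 40 genes. Rps27rt, a gene of nearly the same sequence outside the selection, had 15.6, 23.3 and 46.7 CPM after sleep fragmentation, against 23.6, 15.3 and 20.4 CPM in control, the same order of libraries within sleep fragmentation as Rps27. Values of single members are uncertain to that extent.

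Several ribosomal proteins have a second gene of related sequence, whose protein can in some cases take the same place. In these libraries 5 such paralogs passed the filter on low counts, and all 5 had higher fitted levels after sleep fragmentation (median log2 fold change 0.15), with 0 at an unadjusted edgeR p under 0.05 and 2 of them, Rpl3l and Rpl39l, at 21 counts or fewer in each library. With library size scaling only 3 of the 5 were higher, and 3 of 5 also without sleep fragmentation replicate 2 or replicate 3. Of the partner genes of these 5, Rpl22, Rps27 and Rpl39 had higher and Rpl7 and Rpl3 lower fitted levels. Rps27l, a target of p53, is the counterpart of Rps27, and the coding sequences of both are printed because they show how far reads of the pair can be told apart. Each has 255 nt, and they differ at 61 positions (76.1% identity), in capitals below. Rps27 lies on chromosome 3 and Rps27l on chromosome 9.
Rps27: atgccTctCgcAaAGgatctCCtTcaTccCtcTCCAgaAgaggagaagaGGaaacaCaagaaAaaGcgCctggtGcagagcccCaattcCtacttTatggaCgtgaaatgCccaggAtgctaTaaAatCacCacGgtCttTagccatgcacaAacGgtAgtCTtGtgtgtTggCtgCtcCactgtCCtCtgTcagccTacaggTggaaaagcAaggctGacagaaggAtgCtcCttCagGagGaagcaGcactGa
Rps27l: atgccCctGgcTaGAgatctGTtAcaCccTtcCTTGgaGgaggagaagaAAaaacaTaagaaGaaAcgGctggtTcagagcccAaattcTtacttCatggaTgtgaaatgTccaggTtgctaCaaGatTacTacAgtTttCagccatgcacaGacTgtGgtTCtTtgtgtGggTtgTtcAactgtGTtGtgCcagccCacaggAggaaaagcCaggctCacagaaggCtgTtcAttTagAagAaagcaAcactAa
Rps27l had 63.9, 99.6 and 93.2 CPM after sleep fragmentation, against 101, 65.4 and 89.0 CPM in control (log2 fold change 0.01, SE 0.20). Its share of the counts of the pair was 23.9%, 25.7% and 15.1% in sleep fragmentation replicates 1 to 3, against 26.2%, 22.5% and 26.0% in control replicates 1 to 3. Replicate 3 of sleep fragmentation had the lowest share, and it was the library with the most Rps27. The mean share was 21.6% ± 5.67 after sleep fragmentation and 24.9% ± 2.06 in control (SD, n = 3 each; exact permutation test, 2-sided, p = 0.5, where 0.1 is the smallest p that 3 against 3 libraries allow).

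Rpl22l1 replaces Rpl22, which is needed for the development of T cells in mice. Rpl22 had 227, 336 and 390.4 CPM after sleep fragmentation, against 327, 269 and 317 CPM in control (log2 fold change 0.06, SE 0.20), and Rpl22l1 had 107, 189.8 and 232 CPM after sleep fragmentation, against 181, 127 and 169 CPM in control (log2 fold change 0.15, SE 0.26). The share of Rpl22l1 was 32.1%, 36.1% and 37.3% in sleep fragmentation replicates 1 to 3, against 35.7%, 32.1% and 34.8% in control replicates 1 to 3, with means of 35.2% ± 2.74 after sleep fragmentation and 34.2% ± 1.86 in control (SD, n = 3 each; exact permutation p = 0.6, 2-sided). It was lowest in the 2 libraries in which the whole family was low. Rpl7l1, which acts in the assembly of the large subunit, had 109.6, 136 and 131 CPM after sleep fragmentation, against 124, 117 and 127 CPM in control. Rpl7 had 826, 1108 and 1005 CPM after sleep fragmentation, against 1058, 942 and 1056 CPM in control. The share of Rpl7l1 was 11.7%, 10.9% and 11.6% in sleep fragmentation replicates 1 to 3, against 10.5%, 11.005% and 10.7% in control replicates 1 to 3, with means of 11.4% ± 0.42 after sleep fragmentation and 10.8% ± 0.24 in control (SD, n = 3 each) and a difference of 0.65 percentage points (exact permutation p = 0.2, 2-sided). Rpl39l, known from testis, had 3, 11 and 12 counts after sleep fragmentation against 0, 2 and 16 in control, under 0.13% of its pair with Rpl39 in each library (exact permutation p = 0.7, 2-sided), although the coding sequences of Rpl39 and Rpl39l, 156 nt each, are 85.3% identical. Rpl3l, the form of striated muscle, had 20, 21 and 6 counts after sleep fragmentation against 15, 12 and 3 in control. Over the 4 pairs the p adjusted by Benjamini-Hochberg was 0.7 for each. Rpl10l and Rps4l were not among the genes of the table.

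Other genes of translation were taken from lists. Fau, which encodes a ubiquitin-like fusion of a further small subunit protein, had 321, 339 and 442 CPM after sleep fragmentation, against 348, 336 and 317 CPM in control (log2 fold change 0.14, SE 0.15). Fau was highest in sleep fragmentation replicate 3, and its log2 fold change without that library was -0.02. Rack1, a scaffold on the small subunit, had 682, 854 and 791 CPM after sleep fragmentation, against 820.5, 805 and 896 CPM in control (log2 fold change -0.12, SE 0.14). Rpl36al, a close copy of Rpl36a, had 124, 184 and 146 CPM after sleep fragmentation, against 181, 151 and 173 CPM in control (log2 fold change -0.15, SE 0.16). The groups overlapped in all 3 of these genes. Of 16 elongation factors and other genes with TOP mRNAs, 5 had higher and 11 lower fitted levels (median -0.03), with 0 at an unadjusted edgeR p under 0.05. Their median deviation was -0.28, 0.19 and 0.04 in sleep fragmentation replicates 1 to 3, against 0.13, -0.17 and 0.11 in control replicates 1 to 3, with the same 2 libraries lowest. Eef2, which moves the ribosome along the mRNA, had 1301, 1548 and 1317 CPM after sleep fragmentation, against 1521, 1519 and 1740.0 CPM in control (log2 fold change -0.20, SE 0.15). Eef1g, a subunit of the exchange factor for Eef1a1, had 289, 484 and 385 CPM after sleep fragmentation, against 482, 357 and 482 CPM in control (log2 fold change -0.19, SE 0.21). Eif4b, a helicase cofactor with a TOP mRNA, had 405, 510.2 and 461 CPM after sleep fragmentation, against 541, 427 and 517 CPM in control (log2 fold change -0.11, SE 0.15). The groups overlapped in these 3 genes too. Without sleep fragmentation replicate 1, 12 of the 16 were higher.

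Of 29 initiation factors, 5 had higher and 24 lower fitted levels (median -0.06), again with 0 at an unadjusted edgeR p under 0.05. Without sleep fragmentation replicate 1, 21 of the 29 were higher. Separation without overlap was found in 2 of the 29, a share near the 6.75% of all genes that separated. Eif1, which guards the choice of start codon, had 387, 382 and 431 CPM after sleep fragmentation, against 327, 351 and 342 CPM in control (log2 fold change 0.23, SE 0.12), higher in each library after sleep fragmentation. Eif4h, a helicase cofactor, had 275, 283 and 281 CPM after sleep fragmentation, against 312, 288 and 296 CPM in control (log2 fold change -0.09, SE 0.11), lower in each. Eif3l and Eif3g encode subunits of the initiation factor that binds the small subunit. Eif3l had 120.4, 151 and 135 CPM after sleep fragmentation, against 162, 129.6 and 159 CPM in control (log2 fold change -0.14, SE 0.14). Eif3g had 72.2, 118 and 90.6 CPM after sleep fragmentation, against 116, 92.0 and 108 CPM in control (log2 fold change -0.17, SE 0.18). Both overlapped between the groups. Of 11 genes that control TOP mRNAs, 6 had higher and 5 lower fitted levels (median 0.02). Larp1 had 240.0, 301 and 255 CPM after sleep fragmentation, against 326, 264 and 305 CPM in control (log2 fold change -0.17, SE 0.14). Mlst8, a subunit of the mTOR complexes, had 127, 56.0 and 74.6 CPM after sleep fragmentation, against 69.8, 82.1 and 57.5 CPM in control (log2 fold change 0.30, SE 0.27). The value of Mlst8 rested on sleep fragmentation replicate 1: its log2 fold change was -0.10 without that library and 0.53 without replicate 2. Eif4ebp1, an inhibitor of cap binding that mTOR turns off, had 32.8, 25.9 and 25.2 CPM after sleep fragmentation, against 22.7, 25.8 and 27.3 CPM in control (log2 fold change 0.15, SE 0.15). The ribosomes of mitochondria are built from a separate set of nuclear genes. Of 78 such genes 24 had higher and 54 lower fitted levels (median -0.05), with 0 at an unadjusted edgeR p under 0.05, and their median deviation was -0.23, 0.13 and 0.02 in sleep fragmentation replicates 1 to 3, against 0.16, -0.13 and 0.05 in control replicates 1 to 3. Replicate 1 of sleep fragmentation and replicate 2 of control were lowest in this set too, whereas sleep fragmentation replicate 3 stood near 0. Without sleep fragmentation replicate 1, 47 of the 78 were higher.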

How the data were processed

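The authors deposited 1 table of raw counts for polyadenylated RNA, with a row per gene symbol. Tools named in the submitters' processing notes are HTSeq, HISAT2 and fastp, and the build is GRCm39. Versions, strand setting and annotation release are not given in the sources used here. Whether reads of overlapping genes on opposite strands were told apart is therefore not known. Titles in the labels gave each sample's group and number. Counts were analysed with edgeR 4.0.16 in R 4.3.3: filterByExpr (minimum count 10, minimum total 15; 12097 of 16539 genes), TMM factors (0.910 to 1.086), robust quasi-likelihood F-test on group, and Benjamini-Hochberg adjustment over all genes tested at 0.05. Standard errors were derived from its F statistic. Log2 deviations used a prior count of 2. The fit was tested on simulated data, in 3 runs with 200 changed genes each. Of the changes placed in ribosomal protein genes it called 26.5% at 1.5-fold, 76.3% at 2-fold and 100% at 4-fold. False calls were 6.28% of all calls. Alternatives used DESeq2 1.42.0, limma 3.58.1, other scalings and filters, a replicate block, and each library left out.

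Lengths, GC content and shared windows came from GENCODE M21 (GRCm38), for the shortest basic transcript with the principal coding sequence; 82 of 84 genes matched. Start sequences came from RefSeq (GRCm38.p6). Neither build is that of the counts. The members, lists and tests were chosen with earlier results of these data known. Genes named were the 6 with the smallest p in each direction, those with the highest or lowest levels or the largest spread, a fixed set by role, and up to 3 per pathway list by p; other genes were named with their values known, to complete a count or pattern. Some genes and marker lists are not reported here.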

Additional observations from a re-analysis of the deposited data

How the results depend on the processing

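No ribosomal protein gene passed edgeR's, DESeq2's or limma-voom's adjusted threshold under any of the 14 alternatives run, while over all genes DESeq2 called 13 (443 at an unadjusted p under 0.05, against 341 with edgeR and 338 with limma-voom). The number of ribosomal protein genes at an unadjusted p under 0.05 was 0 to 3 when a library was left out: 3 without sleep fragmentation replicate 1, 3 without sleep fragmentation replicate 2 and 1 (Rpl39l) without control replicate 3. Of all genes, 2.21%, 10.8% and 1.66% lay there in these fits. Over all genes 0 were called with any library left out. The median log2 fold change of the family was -0.10 to 0.17 with libraries left out, and its sign followed the library removed: 0.17 without sleep fragmentation replicate 1 (72 of 84 higher), -0.10 without its replicate 3 (6 of 84 higher), -0.07 without its replicate 2 and -0.09 without control replicate 2. Scaling by library size only moved the median of all genes to -0.11 and that of the family to -0.09, with 16 higher and 68 lower against 44 and 40 with TMM, and left the family 0.02 above the median of all genes in both. Factors computed without these genes gave a median of 0.01. The difference in the share of counts was -0.90 to 0.24 percentage points with libraries left out. Differences in paralog share were -0.10 to 2.52 (Rpl22l1), -5.37 to -0.07 (Rps27l), 0.49 to 0.89 (Rpl7l1) and -0.01 to 0.05 (Rpl39l) percentage points. Whether same-numbered libraries form pairs is not known. Their deviations from the group means had correlations of -0.25, -0.37 and -0.006 over genes. These values come from 3 libraries per group and cannot exclude a pairing of small effect. With the replicate block 0 genes were called (169 at an unadjusted p under 0.05), the median of the family was -0.01, and permutation within numbers gave p = 0.75, 0.75, 0.5 and 0.75 for the 4 paralog shares. At this depth counting limits Rpl32l, Rpl3l and Rpl39l most.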
